A study of Homo sapiens with 12 samples.

Results

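The nuclear pore complex is the gate through which RNA and protein cross the nuclear envelope, and the nucleoporins are the proteins that build it. Its scaffold of Y-shaped complexes and an inner ring is held by membrane proteins, lined by a central channel of phenylalanine-glycine repeats, and extended by filaments on the cytoplasmic side and a basket on the nuclear side. The repeat-bearing nucleoporins, among them NUP62, NUP98, NUP153, NUP214 and RANBP2, are among the proteins most heavily modified by O-GlcNAc, the sugar that OGT attaches and OGA removes. The genes described here are the protein-coding genes whose symbol starts with NUP and a number, plus RANBP2, TPR, POM121, POM121C, NDC1, AAAS, RAE1, SEH1L and SEC13. This rule found 32 of the 62753 genes in the table. Of these, 31 reached a mean of 1 FPKM (fragments per kilobase of gene, scaled by a size per library), the minimum for a test. NUP210L, a germline relative of NUP210, did not reach it, with 0.00989 to 0.0768 FPKM from 1 to 8 reads per library.

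All 12 libraries came from H9, an established human embryonic stem cell line kept in naive culture, and they fall into 4 groups of 3. In siOGA an siRNA was directed at OGA (genotype label, OGA knockdown). In siP300+OGA the EP300 siRNA was combined with OGA (genotype label, OGA overexpression), and in siP300 the EP300 siRNA was used alone (genotype label, EP300 knockdown). EP300 is a histone acetyltransferase. In siNC a control siRNA was used (genotype label, WT). The growth label gives the same medium for every library, PXGL on a layer of mouse embryonic fibroblasts, although the titles of siP300+OGA leave PXGL out. The construct behind the OGA overexpression and the length of the treatments are given in no source used here. Whether the libraries of a group are separate cultures is not stated either, so each p-value measures the spread between these samples only. Per its title, the series is about OGA and pluripotency. The measurements are of transcripts, so nothing here shows the O-GlcNAc on any pore protein.

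Each library held 16238225 to 18714572 reads assigned to genes. The OGA transcript stood at 8.10 ± 0.771 FPKM in siOGA and 40.5 ± 0.431 FPKM in siNC (SD, n = 3 each). The group labelled as overexpressing OGA had 43.8 ± 0.741 FPKM, against 39.8 ± 1.97 FPKM in siP300, a difference that did not pass the test (limma adjusted p = 0.0636), so siP300+OGA below means the libraries labelled so. EP300 fell to 13.3 ± 0.108 FPKM in siP300, against 23.2 ± 0.355 FPKM in siNC, and stood at 15.4 ± 0.329 FPKM in siP300+OGA. That level passed as higher than in siP300, with libraries at 15.09 to 15.75 FPKM against 13.18 to 13.4 FPKM. The part of this EP300 difference in the nucleoporin differences was not tested. Of the 4 general pluripotency markers 0 rose and 3 fell in siP300 against siNC (limma adjusted p under 0.05; median log2 difference of FPKM + 1, −0.54), 4 rose in siP300+OGA against siP300 (0.47), and 2 rose and 2 fell in siOGA against siNC (−0.01). POU5F1 averaged 533.9 ± 60.2 FPKM in siOGA, 426.9 ± 6.13 FPKM in siP300+OGA, 278.4 ± 7.42 FPKM in siP300 and 429.9 ± 23.4 FPKM in siNC. Summed over the 6 naive markers, levels were 769 to 826.7 FPKM in siOGA, 639.1 to 660.8 FPKM in siP300+OGA, 475.6 to 477.9 FPKM in siP300 and 1226 to 1272 FPKM in siNC, with 5 of the 6 lower in siOGA and 6 lower in siP300, against siNC, and 4 higher and 1 lower in siP300+OGA against siP300. Most of each naive sum was DPPA5, DPPA3 and DNMT3L. DPPA3 averaged 312.6 FPKM in siOGA, 122.8 FPKM in siP300+OGA, 74.7 FPKM in siP300 and 291 FPKM in siNC. KLF17 (2.946 FPKM) and DNMT3L (98.08 FPKM) had their lowest mean in siOGA, and the other naive markers in siP300. The 5 primed markers summed to 201.9 to 214 FPKM in siOGA, 158.8 to 168.6 FPKM in siP300+OGA, 157.3 to 161.5 FPKM in siP300 and 76.1 to 82.95 FPKM in siNC. Most of each primed sum was CD24, averaging 151.2 FPKM in siOGA, 120.6 FPKM in siP300+OGA, 116 FPKM in siP300 and 76.88 FPKM in siNC. The 4 primed markers that were tested, all but DUSP6, rose in siOGA (median 2.95) and in siP300 (1.91) against siNC. Of these 4, 1 rose and 2 fell in siP300+OGA against siP300 (−0.11). In siP300+OGA against siNC 3 rose and ZIC2 fell (0.330 ± 0.0858 FPKM against 0.680 ± 0.162 FPKM). Of 6 fibroblast markers 1 reached 1 FPKM, and their sum was 17.95 to 19.02 FPKM in siP300, 1.957 to 2.098 FPKM in siNC and at most 4.998 FPKM in the other groups. Nearly all of that sum was COL1A1, at 17.5 ± 0.546 FPKM in siP300 and 1.86 ± 0.116 FPKM in siNC. The sum of 4 trophectoderm markers was 3.399 to 3.636 FPKM in siP300, with GATA3 at 2.21 ± 0.0471 FPKM, and at most 0.453 FPKM elsewhere, while 3 hypoblast markers summed to at most 0.9428 FPKM in any library. The part of these markers in the nucleoporin differences was not tested. In bulk RNA, fewer cells of a type and less RNA per cell cannot be told apart.

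The promoters of 6 nucleoporin genes on which the results below turn are shown here, as the 250 bases before the first listed RefSeq start (GRCh38.p14). NUP210 and NUP155 had the largest rise and the largest fall in siP300 against siNC, NUP54 and NUP160 the largest rises in siP300+OGA over siP300, and POM121 and POM121C are near-copies. Sequences run 5′ to 3′ along the gene. Capitals mark matches on either strand to an ETS core (CCGGAAG) or a GC box (GGGCGG).
NUP210 (chr3:13420323-13420572, minus strand): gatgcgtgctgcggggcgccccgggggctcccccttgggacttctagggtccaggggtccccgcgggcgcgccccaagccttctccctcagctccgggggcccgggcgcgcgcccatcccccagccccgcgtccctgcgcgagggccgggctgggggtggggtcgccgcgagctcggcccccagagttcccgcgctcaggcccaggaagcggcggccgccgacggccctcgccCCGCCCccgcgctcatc
NUP155 (chr5:37371107-37371356, minus strand): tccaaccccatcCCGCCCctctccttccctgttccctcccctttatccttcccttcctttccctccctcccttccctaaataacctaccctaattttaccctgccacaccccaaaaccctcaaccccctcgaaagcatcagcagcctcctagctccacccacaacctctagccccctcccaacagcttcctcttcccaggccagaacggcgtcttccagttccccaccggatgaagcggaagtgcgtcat
NUP54 (chr4:76148398-76148647, minus strand): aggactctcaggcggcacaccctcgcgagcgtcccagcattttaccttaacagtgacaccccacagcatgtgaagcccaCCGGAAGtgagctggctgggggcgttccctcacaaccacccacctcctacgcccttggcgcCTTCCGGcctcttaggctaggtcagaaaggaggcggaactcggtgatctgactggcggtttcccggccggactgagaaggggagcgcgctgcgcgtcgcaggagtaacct
NUP160 (chr11:47848351-47848600, minus strand): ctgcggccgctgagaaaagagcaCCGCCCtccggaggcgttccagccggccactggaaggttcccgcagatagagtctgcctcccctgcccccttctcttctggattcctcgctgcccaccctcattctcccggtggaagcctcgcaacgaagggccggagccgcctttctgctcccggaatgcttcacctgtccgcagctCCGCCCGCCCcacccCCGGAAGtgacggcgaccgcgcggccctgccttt
POM121 (chr7:72879107-72879356, plus strand): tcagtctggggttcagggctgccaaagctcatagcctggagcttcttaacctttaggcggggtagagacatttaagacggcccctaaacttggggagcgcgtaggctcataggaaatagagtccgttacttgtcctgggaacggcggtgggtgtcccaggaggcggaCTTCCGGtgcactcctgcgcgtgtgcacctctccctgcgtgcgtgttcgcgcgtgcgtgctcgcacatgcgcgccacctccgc
POM121C (chr7:75486300-75486549, minus strand): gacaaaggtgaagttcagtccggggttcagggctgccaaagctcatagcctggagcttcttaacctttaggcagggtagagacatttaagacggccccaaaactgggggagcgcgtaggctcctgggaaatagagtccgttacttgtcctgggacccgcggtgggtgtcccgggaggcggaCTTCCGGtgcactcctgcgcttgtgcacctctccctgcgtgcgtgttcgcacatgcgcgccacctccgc
The NUP54 promoter holds 2 ETS cores, on opposite strands, and that of NUP160 holds 1 beside 3 GC boxes, of which 2 overlap. By the authors' coordinates NUP160 begins at 47848555 on the minus strand, so most of its window, with the ETS core, lies inside the gene. NUP210 and NUP155 hold 1 GC box each and no ETS core. The POM121 and POM121C windows are identical at 226 of 236 aligned bases (95.8%), and both hold the ETS core.

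RefSeq listed a start for 31 of the 32 genes, including NUP210L, and more than 1 start for 8 of them. By the authors' coordinates some windows, such as those of AAAS, NUP35 and SEH1L, lie wholly inside the gene. The ETS core was present in 13 of these 31 promoters (41.9%), against 8.82% of 27305 promoters in the table and 17.1% of the 9223 belonging to genes tested here. The GC box stood in 13 of them (41.9%, against 42.3% of all promoters and 70% of those of tested genes). CCAAT was found in 12 (38.7%, against 33% of all promoters and 36.1% of those of tested genes), the E-box CACGTG in 2 (6.45%, against 6.49% and 9.04%) and TATAAA in 0 (against 11.1% and 4.81%). All motifs were read on both strands. The 13 genes with an ETS core had medians of −0.23 in siOGA against siNC, −0.24 in siP300 against siNC and 0.28 in siP300+OGA against siP300, on the log2 scale explained next. For the 17 tested genes with a listed start and no ETS core these medians were 0.03, −0.30 and 0.17. A match to letters is a description of the window and was not tested for binding.

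Differences below are log2 differences of FPKM + 1 from limma, with the 12 libraries in 1 model, and a gene is said to have risen or fallen where its Benjamini-Hochberg adjusted p over all 13166 tested genes is under 0.05. Between genes, NUP205 and NUP153 had the highest levels per length, and NUP214, NUP62CL and NUP42 the lowest. The highest mean was 72.2 FPKM for NUP205 in siOGA, 53.6 FPKM for NUP153 in siP300+OGA, 42.1 FPKM for NUP153 in siP300 and 58.6 FPKM for NUP153 in siNC. The median of the 31 means was 17.2 FPKM in siOGA, 17.2 FPKM in siP300+OGA, 14.4 FPKM in siP300 and 18.9 FPKM in siNC. The lowest of a gene's 4 group means lay in siP300 for 19 genes, and the highest lay there for 0. Behind each value stood 113 to 10393 reads, and the median coefficient of variation within a group was 2.82% to 5.09%. Within its group siOGA replicate 3 was the highest of the 3 libraries in 22 of the 31 genes and in 40.9% of all tested genes. By the same count siP300+OGA replicate 2 was highest in 19 (37%), siNC replicate 3 in 16 (36%) and siP300 replicate 2 in 15 (32.5%). Without siOGA replicate 3, 10 nucleoporin genes rose and 16 fell in siOGA against siNC (4333 and 4200 of all 13166 tested genes), close to the counts with it. Without siP300+OGA replicate 2, 21 rose and 0 fell in siP300+OGA against siP300 (3057 and 2513 of all tested genes).

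**Figure D1:**
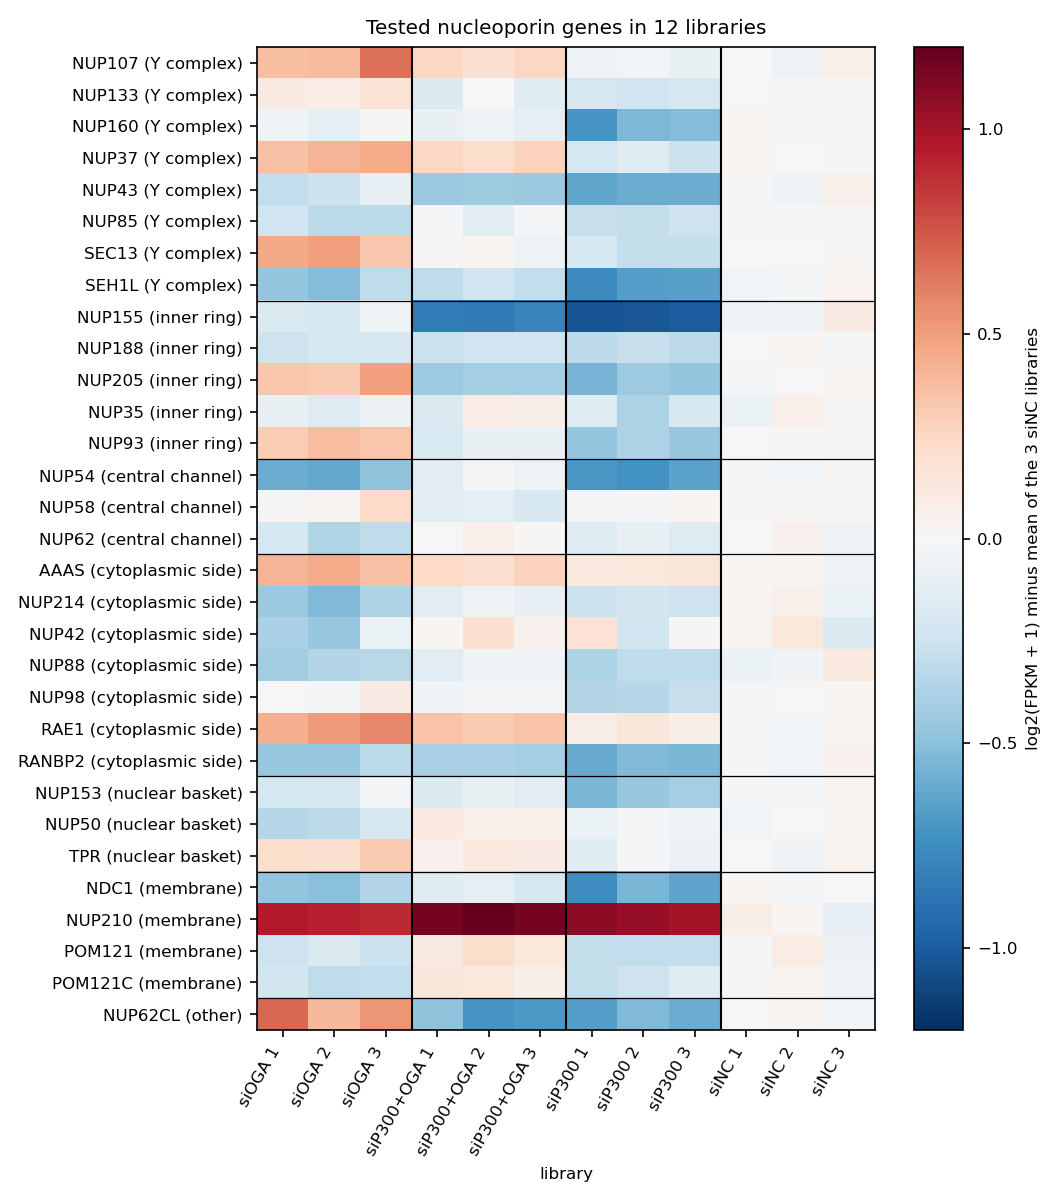
Each row is a tested nucleoporin gene and each column a library; colour gives log2(FPKM + 1) minus the mean of the 3 siNC libraries, blue for lower and red for higher. The siP300 columns are blue for most genes, the siP300+OGA columns are paler, and NUP210 is red in all 9 libraries outside siNC.

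In siOGA against siNC the nucleoporin genes split. 11 of the 31 rose and 16 fell, where 34% of all tested genes rose and 32.9% fell, and their median difference was −0.14, against 0.01 for all tested genes. The largest rises were those of NUP210 (0.93 ± 0.05, SE), NUP62CL (0.53 ± 0.08) and RAE1 (0.51 ± 0.04). The largest falls were those of NUP54 (−0.56 ± 0.05), NUP214 (−0.45 ± 0.05) and NDC1 (−0.44 ± 0.05). The 3 libraries of siOGA lay wholly above those of siNC for 12 genes and wholly below for 14 (35.1% and 33.5% of all tested genes).

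In siP300 against siNC the shift ran mostly one way. 23 of the 31 genes fell and 3 rose, where 35.7% of all tested genes fell and 30.2% rose, and the median difference was −0.27, against −0.04 for all tested genes. Nucleoporin genes are well expressed, and among genes averaging 5 FPKM or more 22 of 29 nucleoporin genes fell, where 44.5% of 7018 genes did, with medians of −0.29 and −0.10. NUP155 fell most (−1.02 ± 0.05), then SEH1L (−0.69 ± 0.06) and NUP54 (−0.69 ± 0.05). Against this direction NUP210 rose (1.04 ± 0.05). The siP300 libraries lay wholly below siNC for 23 genes and wholly above for 3 (38.3% and 32.6% of all tested genes).

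In siP300+OGA against siP300 most of the genes were higher. 26 of the 31 genes rose and 1 fell, where 27% of all tested genes rose and 21.2% fell, and the median difference was 0.21, against 0.03 for all tested genes. Among genes averaging 5 FPKM or more 25 of 29 rose, where 38.2% of all such genes did, with medians of 0.23 and 0.08. The largest rises were those of NUP54 (0.62 ± 0.05), NUP160 (0.50 ± 0.05) and NDC1 (0.49 ± 0.05). All 3 libraries of siP300+OGA lay above those of siP300 for 26 genes and below for 1 (33.3% and 26.3% of all tested genes). This comparison shares the siP300 libraries with the one before it, so a low siP300 value enters both with opposite sign. With quantile normalization 18 genes rose and 1 fell (26.4% and 21.8% of all tested genes). The calls of AAAS, NUP133, NUP210, NUP214, NUP35, NUP50 and NUP58 lay near the threshold here and were each lost in 6 to 13 of the alternatives tried.

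**Figure D2:**
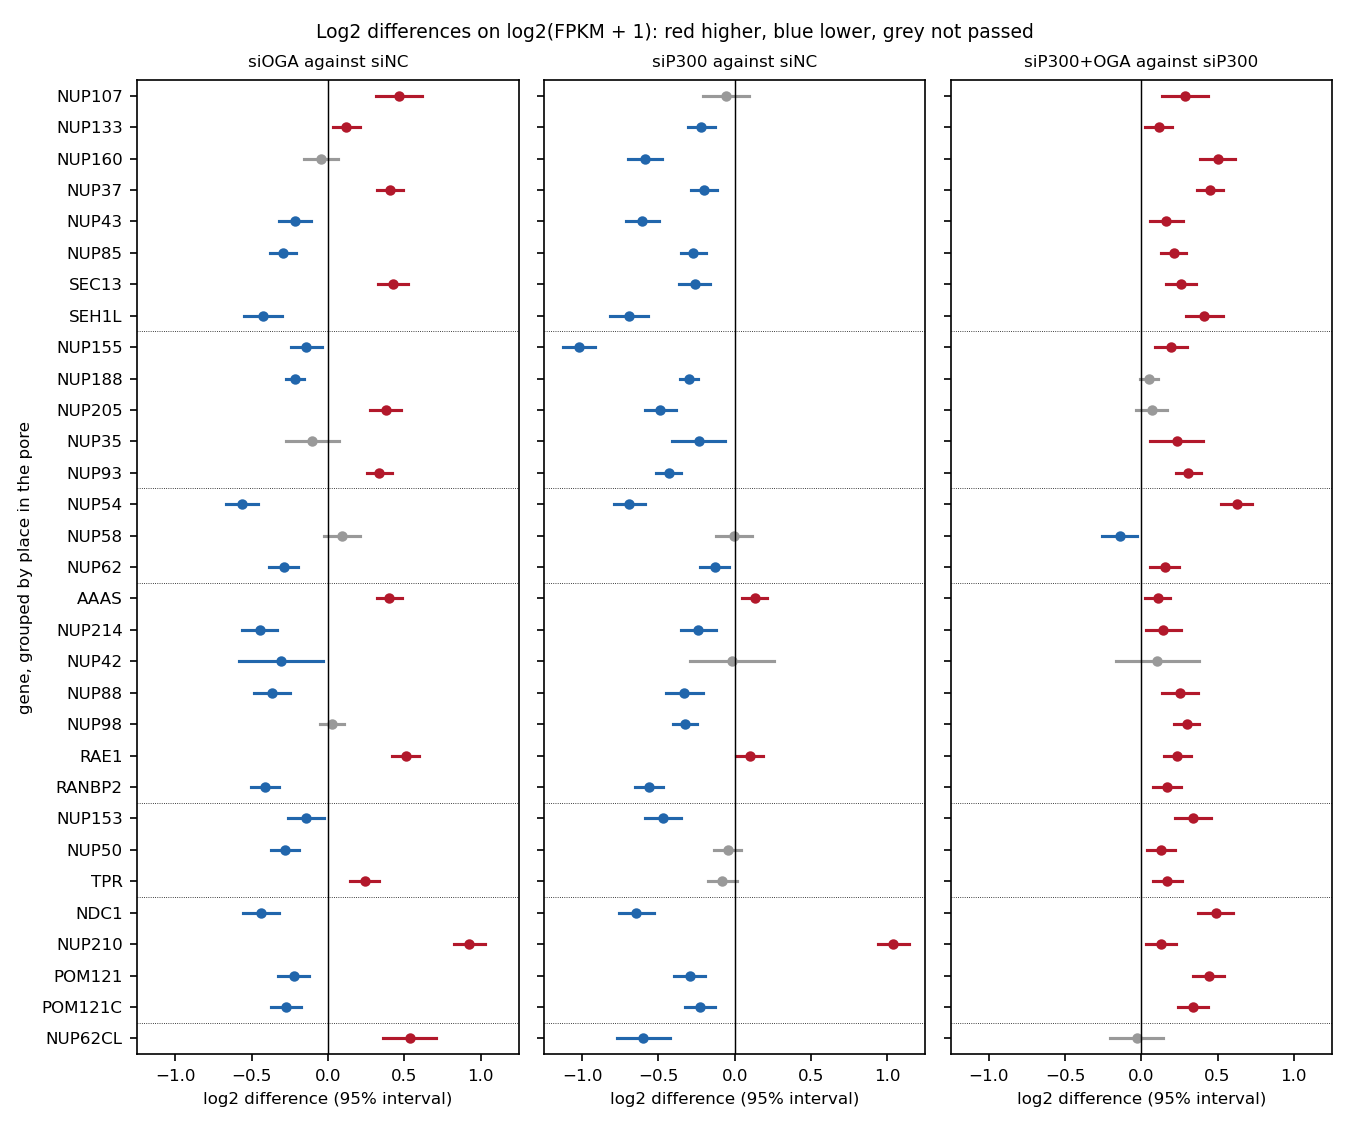
Points are log2 differences on the log2(FPKM + 1) scale and bars their 95% intervals for 31 genes grouped by place in the pore; red passed as higher, blue passed as lower, grey did not pass. Most points lie left of 0 in siP300 against siNC and right of 0 in siP300+OGA against siP300, and both sides are filled in siOGA against siNC.

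The siP300+OGA libraries were also set against siNC, a comparison that shares libraries with those above. 6 genes rose and 11 fell, where 30.8% of all tested genes rose and 30.2% fell, and the median was −0.07, against −0.00 for all genes. Genes lower in siP300 and no longer past the test in siP300+OGA included NUP54 (−0.07, 95% interval −0.17 to 0.04), NUP160 (−0.09, −0.20 to 0.02), SEC13 (−0.00, −0.10 to 0.09) and NUP98 (−0.03, −0.11 to 0.05). Genes that remained lower included NUP155 (−0.82 ± 0.05), NUP62CL (−0.63 ± 0.08), NUP43 (−0.44 ± 0.05), NUP205 (−0.42 ± 0.05) and RANBP2 (−0.39 ± 0.04). Without siP300+OGA replicate 1, 7 genes fell instead of 11 (3667 of all 13166 tested genes fell).

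The knockdowns were compared directly as siOGA against siP300. 20 genes were higher in siOGA and 4 lower, where 39.3% and 34.8% of all tested genes were, with a median of 0.27 against 0.04. Among genes averaging 5 FPKM or more 20 of 29 were higher, where 47.9% of all such genes were, with medians of 0.27 and 0.12. With quantile normalization the split was 16 higher and 7 lower (37% and 35.9% of all tested genes). NUP62CL (1.13 ± 0.08), NUP155 (0.88 ± 0.05), NUP205 (0.87 ± 0.05) and NUP93 (0.77 ± 0.04) differed most. The 4 lower in siOGA were NUP50 (−0.24 ± 0.04), NUP214 (−0.21 ± 0.05), NUP62 (−0.16 ± 0.04) and NUP210 (−0.11 ± 0.05). The NUP210 call was lost in 8 of 22 alternatives (adjusted p = 0.00136 to 0.116). With regional medians removed NUP62 passed as higher in siOGA (0.13), and NUP214 stood at 0.02.

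**Figure D3:**
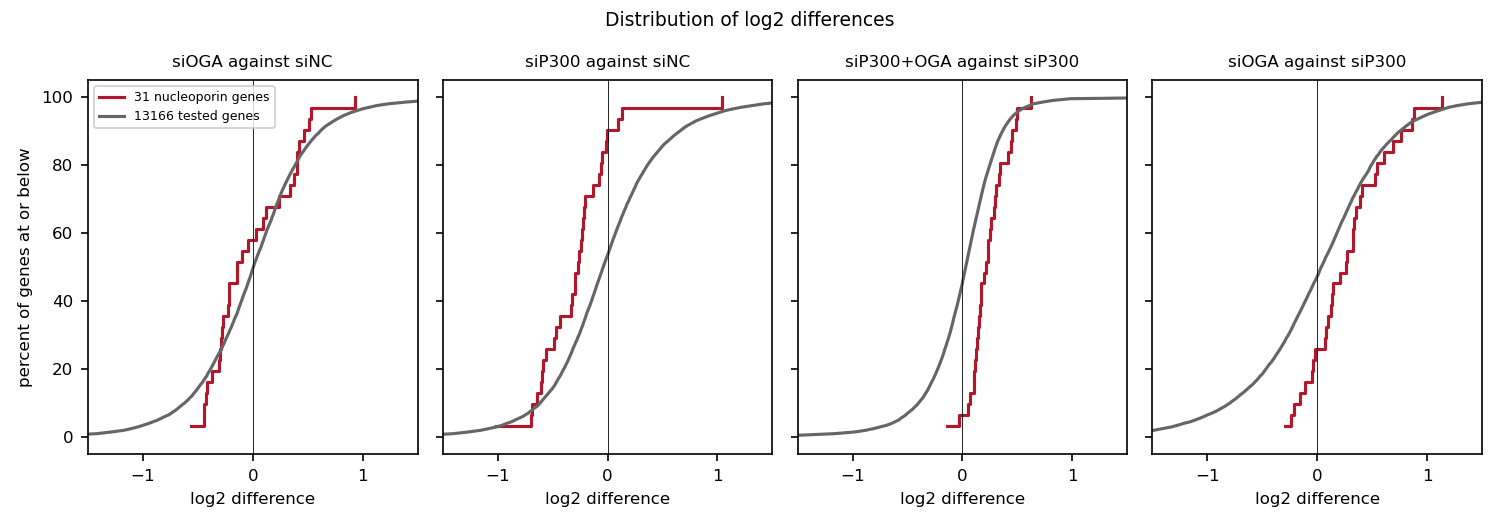
Each panel gives, for 1 comparison, the percent of genes (vertical axis) at or below a log2 difference (horizontal axis), in red for the 31 nucleoporin genes and in grey for the 13166 tested genes. The red line lies left of the grey one over most of its course in siP300 against siNC and right of it in siP300+OGA against siP300, with medians of −0.27 and 0.21.

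The Y complex is the outer scaffold of the pore, and 8 genes encode it here. In siP300 against siNC 7 of the 8 fell, with a median of −0.27 (35.7% of all tested genes fell, and 44.5% of those averaging 5 FPKM or more). All 8 rose in siP300+OGA against siP300, with a median of 0.27 (27% of all tested genes rose, and 38.2% of those averaging 5 FPKM or more). In siOGA against siNC the complex split, with NUP107, SEC13, NUP37 and NUP133 higher and SEH1L, NUP85 and NUP43 lower. NUP160 (ENSG00000030066, GRCh38 chromosome 11, 47778087 to 47848555, minus strand), which forms an arm of the Y, had 30.6, 29.0 and 31.9 FPKM in siOGA, 29.5, 30.2 and 29.0 FPKM in siP300+OGA, 18.9, 21.3 and 21.7 FPKM in siP300, and 32.2, 31.1 and 31.3 FPKM in siNC. The siP300 libraries lay below all others, and the siOGA and siNC libraries overlapped. SEH1L, which also serves in the GATOR2 complex of nutrient sensing, had 9.30, 8.91 and 10.5 FPKM in siOGA, 10.5, 11.0 and 10.6 FPKM in siP300+OGA, 7.33, 8.00 and 8.01 FPKM in siP300, and 12.9, 13.1 and 13.7 FPKM in siNC. All 9 libraries outside siNC lay below the 3 siNC libraries, and siP300 was lowest.

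NUP107 (ENSG00000111581, chromosome 12, 68686951 to 68745809, plus strand), which forms the stem of the Y, was the only Y complex gene that did not fall in siP300. Its levels were 25.1, 25.5 and 31.1 FPKM in siOGA, 23.2, 22.1 and 23.2 FPKM in siP300+OGA, 18.6, 18.9 and 18.1 FPKM in siP300, and 19.4, 18.5 and 20.2 FPKM in siNC. All siOGA and siP300+OGA libraries lay above siNC, siP300 and siNC overlapped, and siOGA replicate 3 was the highest of the 12. The rise was 0.47 ± 0.07 in siOGA (adjusted p = 0.000113), and siP300 did not pass (−0.06, 95% interval −0.21 to 0.09). NUP37, another Y member, had 14.3, 15.0 and 15.4 FPKM in siOGA, 13.3, 12.9 and 13.6 FPKM in siP300+OGA, 9.41, 9.85 and 9.07 FPKM in siP300, and 11.2, 10.9 and 10.9 FPKM in siNC. No library of siOGA or siP300+OGA overlapped siNC, and siP300 lay below it. SEC13, which also coats vesicles leaving the endoplasmic reticulum, rose in siOGA (0.42 ± 0.04) and fell in siP300 (−0.26 ± 0.04).

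NUP107 and NUP37 lie on chromosome 12, as does AAAS, and the tested genes around them moved too. The median difference in siOGA against siNC was 0.47 over the 56 tested genes in the 20 Mb region of NUP107, 0.32 over 120 genes around NUP37 and 0.42 over 189 genes around AAAS. With the median of its region removed from each gene, the siOGA differences were 0.01 for NUP107, 0.03 for NUP37 and −0.01 for AAAS, and none passed. NUP107 then fell in siP300 (−0.27) and stood at −0.07 in siP300+OGA against siNC. Around NUP210 and SEC13 on chromosome 3 the regional medians had the other sign (−0.11 in siOGA and −0.26 in siP300), and NUP210 still rose, by 1.06 in siOGA and 1.28 in siP300. The fall of SEC13 in siP300 matched its region and did not pass once that was removed (−0.02). Around NUP188 on chromosome 9 the median of 202 genes in siOGA was −0.24, and NUP188 stood at 0.05 without it. Over all 31 genes 6 rose and 15 fell in siOGA against siNC with regional medians removed (32.5% and 32.4% of all tested genes). In siP300 against siNC 2 rose and 26 fell (31.9% and 32% of all tested genes), and in siP300+OGA against siP300 20 rose and 0 fell (21.3% and 22.4% of all tested genes). What moved these regions was not tested.

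**Figure D4:**
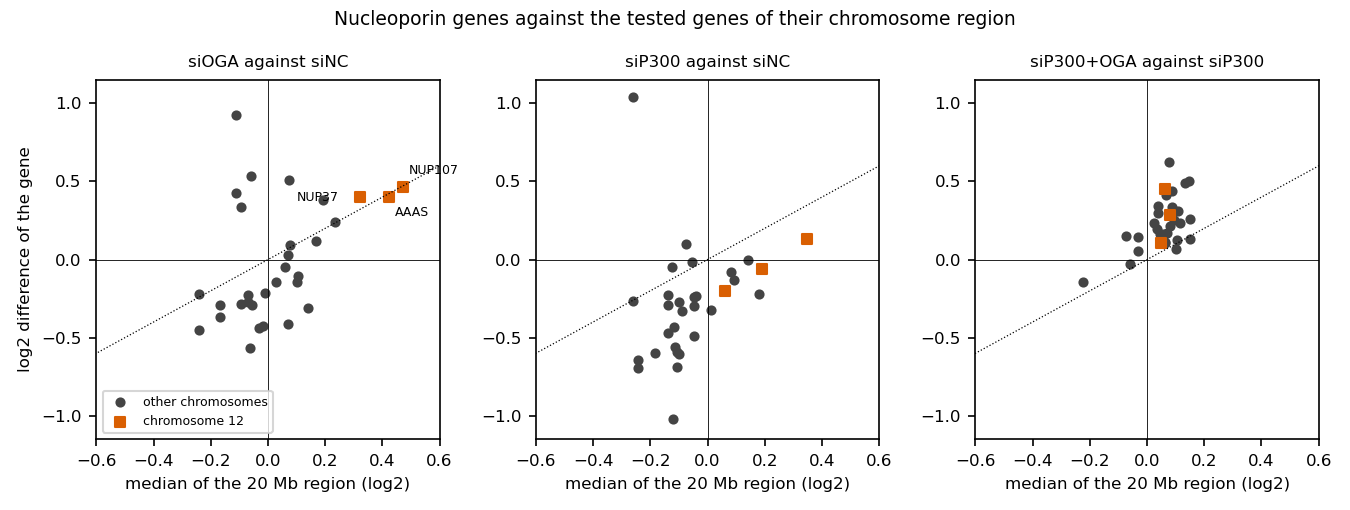
Each point is a nucleoporin gene; the horizontal axis is the median log2 difference of the tested genes in its 20 Mb region and the vertical axis its own log2 difference, with a dotted line where both are equal. In siOGA against siNC the 3 genes on chromosome 12 (orange squares) lie near the line, at regional medians of 0.32 to 0.47.

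The inner ring supports the channel, and all 5 of its genes fell in siP300 against siNC (35.7% of all tested genes), with a median of −0.43. In siP300+OGA against siP300 3 of them rose (27% of all tested genes). NUP155 (ENSG00000113569, chromosome 5, 37288137 to 37371106, minus strand), a large scaffold protein of the ring, had 32.3, 31.8 and 34.9 FPKM in siOGA, 19.98, 19.9 and 20.6 FPKM in siP300+OGA, 17.3, 17.4 and 17.8 FPKM in siP300, and 35.2, 35.2 and 39.2 FPKM in siNC. Every siP300 and siP300+OGA library was far below every siOGA and siNC library, and siP300+OGA lay above siP300. The siP300 mean was 17.5 ± 0.241 FPKM, against 36.5 ± 2.30 FPKM in siNC (−1.02 ± 0.05, adjusted p = 8.47e-09), and siP300+OGA exceeded siP300 by 0.19 ± 0.05 (adjusted p = 0.00498). The smaller siOGA difference against siNC (−0.14 ± 0.05, adjusted p = 0.0182) was lost in 4 of 22 alternatives, which gave adjusted p = 1.96e-05 to 0.0701.

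NUP205, another large ring protein, and NUP93, which links the ring to the channel, moved in opposite directions under the knockdowns. NUP205 averaged 72.2 ± 4.98 FPKM in siOGA, 41.0 ± 0.449 FPKM in siP300+OGA, 39.1 ± 1.75 FPKM in siP300 and 55.2 ± 1.08 FPKM in siNC. NUP93 averaged 24.0 ± 0.577 FPKM in siOGA, 17.2 ± 0.643 FPKM in siP300+OGA, 13.7 ± 0.546 FPKM in siP300 and 18.8 ± 0.216 FPKM in siNC. Both rose in siOGA (0.38 and 0.34) and fell in siP300 (−0.49 and −0.43). NUP93 rose in siP300+OGA over siP300 (0.31 ± 0.04), and NUP205 did not pass there (0.07, 95% interval −0.03 to 0.17). NUP188 fell in both knockdowns (−0.22 and −0.30), and NUP35, a membrane-binding ring protein, fell in siP300 (−0.24 ± 0.08). NUP35 stood at −0.10 ± 0.08 in siOGA, and the knockdowns did not differ past the test for it (0.13, adjusted p = 0.145).

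The central channel proteins NUP62, NUP58 and NUP54 form 1 subcomplex, and their transcripts did not move alike. NUP54 (ENSG00000138750, chromosome 4, 76107562 to 76148485, minus strand) had 5.15, 5.05 and 5.67 FPKM in siOGA, 7.51, 8.20 and 7.93 FPKM in siP300+OGA, 4.73, 4.61 and 4.93 FPKM in siP300, and 8.39, 8.09 and 8.38 FPKM in siNC. The siOGA and siP300 libraries all lay below the others, and siP300+OGA overlapped siNC. NUP54 fell by 0.56 in siOGA (adjusted p = 1.3e-06) and by 0.69 in siP300 (adjusted p = 2.18e-07), and it rose by 0.62 in siP300+OGA over siP300 (adjusted p = 1.79e-06), the largest rise among the 31 genes there. NUP62, a heavily O-GlcNAc-modified channel protein, had 17.0, 15.2 and 15.9 FPKM in siOGA, 19.7, 20.7 and 20.01 FPKM in siP300+OGA, 17.8, 18.6 and 17.7 FPKM in siP300, and 19.7, 20.6 and 19.2 FPKM in siNC. The siOGA libraries were lowest, siP300 lay between, and siP300+OGA overlapped siNC.

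NUP62 fell in siOGA (−0.29 ± 0.04, adjusted p = 0.000119) and in siP300 (−0.13 ± 0.04, adjusted p = 0.0199), and rose in siP300+OGA over siP300 (0.15 ± 0.04). Its gene overlaps ATF5, a transcription factor gene at 31.5 FPKM on the other strand, and no source used here says whether counting used the strand. NUP58 averaged 8.04 ± 0.743 FPKM in siOGA, 6.63 ± 0.225 FPKM in siP300+OGA, 7.42 ± 0.132 FPKM in siP300 and 7.45 ± 0.131 FPKM in siNC. It was the 1 gene lower in siP300+OGA than in siP300 (−0.14 ± 0.05, adjusted p = 0.046). That call was lost in 13 of 22 alternatives (adjusted p = 0.0053 to 0.382), and with its regional median of −0.22 removed the difference was 0.06.

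**Figure D5:**
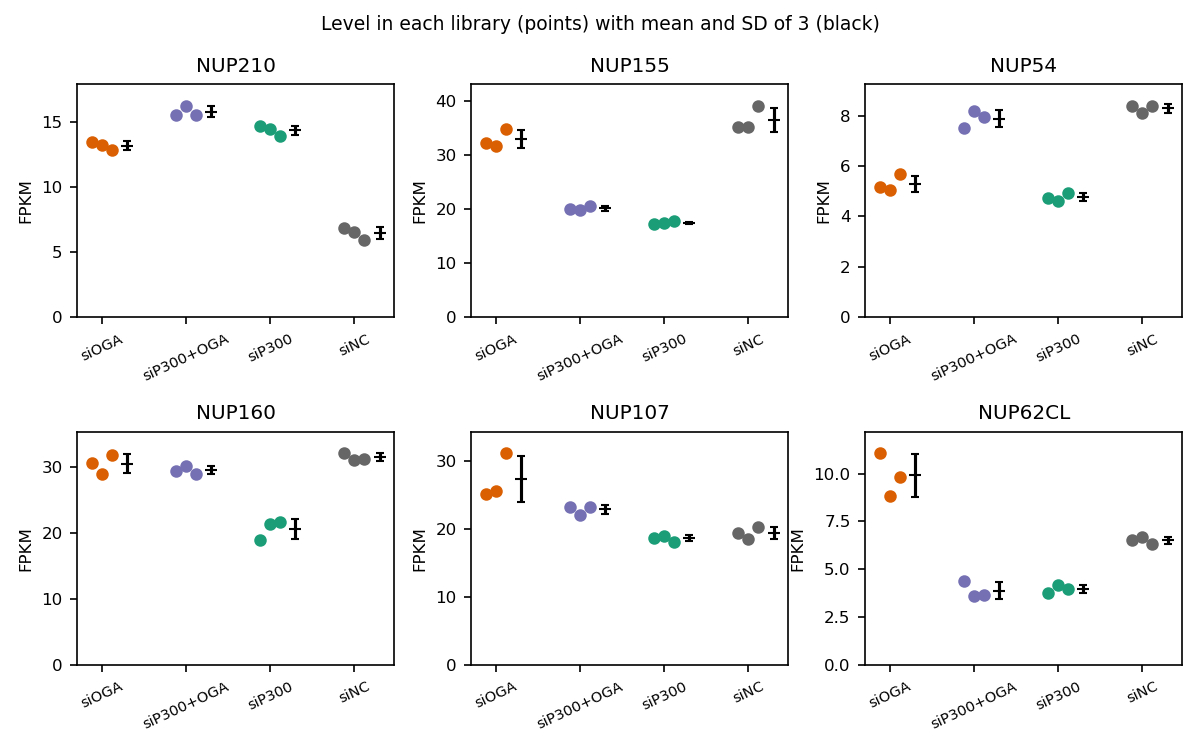
FPKM (vertical axis, starting at 0) of 6 genes in each library, by group; coloured points are libraries and black marks the mean and SD of 3. NUP210 is higher in every group than in siNC, NUP155 is low in both EP300 siRNA groups, and NUP54 and NUP160 are low in siP300 and near siNC in siP300+OGA.

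On the cytoplasmic side RNA is released and transport factors unload. In siP300 against siNC 4 of 7 genes fell while AAAS and RAE1 rose (35.7% and 30.2% of all tested genes). RANBP2, the large filament protein and SUMO ligase, had 13.6, 13.5 and 14.9 FPKM in siOGA, 14.2, 14.2 and 14.04 FPKM in siP300+OGA, 12.1, 12.9 and 12.6 FPKM in siP300, and 18.6, 18.5 and 19.7 FPKM in siNC. All 9 other libraries lay below siNC. Its differences against siNC were −0.41 ± 0.04 in siOGA, −0.39 ± 0.04 in siP300+OGA and −0.56 ± 0.04 in siP300, and its near-identical RGPD copies make its reads uncertain. NUP214, which anchors the export helicase, had 3.36, 3.11 and 3.59 FPKM in siOGA, 4.43, 4.69 and 4.54 FPKM in siP300+OGA, 3.97, 4.11 and 4.01 FPKM in siP300, and 5.04, 5.17 and 4.60 FPKM in siNC. The siOGA libraries were lowest and did not overlap siP300, and siP300+OGA overlapped siNC. Its partner NUP88 also fell in siOGA (−0.37 ± 0.05) and in siP300 (−0.33 ± 0.05).

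NUP98, a mobile repeat protein whose gene also encodes the Y member NUP96, had 20.9, 20.7 and 22.5 FPKM in siOGA, 20.2, 20.8 and 20.6 FPKM in siP300+OGA, 16.2, 16.3 and 17.1 FPKM in siP300, and 20.6, 20.9 and 21.4 FPKM in siNC. The siP300 libraries lay below the other 9, which overlapped. NUP98 fell by 0.33 in siP300 (adjusted p = 1.3e-05), rose by 0.30 in siP300+OGA over siP300 (adjusted p = 6.65e-05) and did not pass in siOGA (0.03, 95% interval −0.05 to 0.11). RAE1, the mRNA export factor that binds NUP98, had 10.9, 11.5 and 12.1 FPKM in siOGA, 10.2, 9.91 and 10.2 FPKM in siP300+OGA, 8.30, 8.68 and 8.25 FPKM in siP300, and 7.87, 7.57 and 7.94 FPKM in siNC. The groups kept this order with no overlap. RAE1 rose by 0.51 in siOGA (adjusted p = 7.93e-07), while its small rise in siP300 (0.10 ± 0.04, adjusted p = 0.0497) was lost in 16 of 22 alternatives (adjusted p = 0.00349 to 0.16).

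AAAS, whose loss causes triple A syndrome, averaged 17.2 ± 0.589 FPKM in siOGA, 15.3 ± 0.433 FPKM in siP300+OGA, 14.1 ± 0.165 FPKM in siP300 and 12.8 ± 0.486 FPKM in siNC. Its rise in siP300 against siNC was 0.13 ± 0.04, and with the regional median of 0.35 removed it was lower, at −0.19. NUP42, a cofactor of the export helicase, had the widest spread, with 3.39, 3.203 and 4.47 FPKM in siOGA and 4.89, 5.31 and 4.14 FPKM in siNC. The groups overlapped, and its fall in siOGA (−0.31 ± 0.12, adjusted p = 0.0465) was lost in 13 of 21 alternatives (adjusted p = 0.00477 to 0.156).

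The nuclear basket receives exported RNA and touches chromatin. All 3 of its genes rose in siP300+OGA over siP300 (27% of all tested genes), while 1 of 3 fell in siP300 against siNC (35.7% of all tested genes). NUP153, which joins the basket to the pore, had 50.5, 50.7 and 57.8 FPKM in siOGA, 52.3, 55.2 and 53.2 FPKM in siP300+OGA, 39.8, 42.5 and 44.0 FPKM in siP300, and 58.0, 57.8 and 60.2 FPKM in siNC. The siP300 libraries were lowest, and siOGA replicate 3 reached the lowest siNC library. NUP153 fell by 0.47 in siP300 (adjusted p = 1.34e-05). Its fall in siOGA (−0.15 ± 0.05, adjusted p = 0.0307) was lost in 6 of 22 alternatives (adjusted p = 0.00144 to 0.113). TPR, the filament protein of the basket, had 24.5, 24.2 and 26.3 FPKM in siOGA, 21.8, 22.8 and 22.5 FPKM in siP300+OGA, 18.8, 20.6 and 19.9 FPKM in siP300, and 21.0, 20.3 and 21.6 FPKM in siNC. The siOGA libraries were highest, and siP300 overlapped siNC.

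TPR rose in siOGA (0.24 ± 0.04, adjusted p = 0.000475) and did not pass in siP300 (−0.08, 95% interval −0.18 to 0.01). With its regional median removed, the siOGA difference of TPR was 0.05 and did not pass. NUP50, a mobile basket protein that speeds importin release, fell in siOGA (−0.28 ± 0.04) and not past the test in siP300 (−0.05 ± 0.04). The 2 knockdowns themselves differed for NUP50 (siOGA against siP300, −0.24 ± 0.04, adjusted p = 0.000346).

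The membrane nucleoporins anchor the ring, and they include the gene that moved most. NUP210 (ENSG00000132182, chromosome 3, 13316235 to 13420322, minus strand), a tissue-restricted transmembrane protein with a large lumenal domain, had 13.5, 13.3 and 12.9 FPKM in siOGA, 15.6, 16.3 and 15.6 FPKM in siP300+OGA, 14.7, 14.5 and 13.97 FPKM in siP300, and 6.87, 6.60 and 5.99 FPKM in siNC. All 9 libraries outside siNC lay above the 3 siNC libraries. NUP210 averaged 204% of siNC in siOGA, 244% in siP300+OGA and 222% in siP300, with adjusted p = 1.96e-08, 3.83e-09 and 6.09e-09. The further rise in siP300+OGA over siP300 was small (0.13 ± 0.05, adjusted p = 0.0361), was lost in 8 of 22 alternatives (adjusted p = 0.0095 to 0.696) and stood at −0.03 with the regional median removed.

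The other 3 membrane genes fell in both knockdowns and rose in siP300+OGA over siP300. Of all tested genes, 32.9% fell in siOGA and 35.7% in siP300 against siNC, and 27% rose in siP300+OGA against siP300. NDC1 (ENSG00000058804, chromosome 1, 53765478 to 53838463, minus strand), which helps to insert new pores, had 33.2, 32.5 and 36.3 FPKM in siOGA, 41.8, 43.0 and 39.9 FPKM in siP300+OGA, 27.3, 31.3 and 29.6 FPKM in siP300, and 47.1, 45.9 and 46.2 FPKM in siNC. The 4 groups did not overlap, with siP300 lowest and siNC highest. NDC1 fell by 0.44 in siOGA (adjusted p = 2.28e-05) and by 0.64 in siP300 (adjusted p = 9.51e-07), and rose by 0.49 in siP300+OGA over siP300. POM121 had 10.3, 10.9 and 10.3 FPKM in siOGA, 13.4, 14.6 and 13.6 FPKM in siP300+OGA, 9.99, 9.94 and 9.94 FPKM in siP300, and 12.3, 13.2 and 11.8 FPKM in siNC. The siP300+OGA libraries were highest and those of siP300 lowest, with no overlap between the groups. POM121C moved with it (−0.27 in siOGA, −0.23 in siP300 and 0.34 in siP300+OGA over siP300), and reads of the pair may be exchanged, since the genes are near-copies.

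NUP62CL, an X-linked relative of the NUP62 carboxyl end with no settled role in the pore, had the largest difference between the knockdowns (1.13 in siOGA against siP300). It had 11.1, 8.85 and 9.82 FPKM in siOGA, 4.37, 3.59 and 3.66 FPKM in siP300+OGA, 3.75, 4.20 and 3.96 FPKM in siP300, and 6.51, 6.70 and 6.33 FPKM in siNC. The siOGA libraries were above siNC and both EP300 siRNA groups below it, with siP300+OGA and siP300 overlapping. It rose by 0.53 in siOGA (adjusted p = 0.000115), fell by 0.60 in siP300 (adjusted p = 4.68e-05) and did not pass in siP300+OGA against siP300 (−0.03, 95% interval −0.20 to 0.15).

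Other genes overlap some of these loci. 11 of the 32 nucleoporin genes overlap a gene at 1 FPKM or more, and 6 overlap a gene at 5 FPKM or more. These are NUP43 with PCMT1 (38.3 FPKM), NUP62 with ATF5, NUP98 with PGAP2 (9.18 FPKM), NUP88 with RPAIN (6.17 FPKM) and RABEP1 (6.01 FPKM), NUP155 with RNU7-75P (5.56 FPKM) and NUP188 with SH3GLB2 (5.52 FPKM). Their levels are uncertain to the extent that shared reads were split.

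Cargo passes the pore on importins and exportins, which load and unload under the GTPase RAN, and 36 such partner genes were examined. 34 were tested, and KPNA7 and IPO4 fell below the minimum. In siOGA against siNC 18 rose and 6 fell (median 0.14), in siP300+OGA against siP300 14 rose and 3 fell (median 0.11), and in siP300 against siNC 8 rose and 19 fell (median −0.20). Of all tested genes, 34% rose and 32.9% fell in siOGA against siNC (median 0.01). These shares were 27% and 21.2% in siP300+OGA against siP300 (median 0.03), and 30.2% and 35.7% in siP300 against siNC (median −0.04). Most of the 34 partner genes averaged 5 FPKM or more. Of all genes at that level, 38.2% rose in siP300+OGA against siP300 (median 0.08). In siP300 against siNC 44.5% of them fell (median −0.10), and their median in siOGA against siNC was 0.03. In siOGA the largest rises were those of the importins KPNA5 (0.77), TNPO2 (0.61) and TNPO1 (0.51), and the largest falls those of RCC1 (−0.73), NXT1 (−0.48) and IPO13 (−0.34). RCC1, the exchange factor that charges RAN on chromatin, averaged 25.5 ± 1.74 FPKM in siOGA, 37.6 ± 1.49 FPKM in siP300+OGA, 24.2 ± 0.880 FPKM in siP300 and 42.9 ± 1.08 FPKM in siNC. It fell in both knockdowns and had the largest rise of the list in siP300+OGA over siP300 (0.61, adjusted p = 2.63e-06), ahead of RANBP1 (0.56) and the exportin XPO5 (0.47).

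In siP300 the importin IPO8 (−0.85), RCC1 (−0.80) and IPO11 (−0.58) fell most, and TNPO2 (0.52), the mRNA exporter NXF1 (0.52) and KPNA2 (0.38) rose most. KPNA3 (−0.24), KPNA2 (−0.22) and XPOT (−0.15) fell in siP300+OGA against siP300. Next, 13 genes that act in pore assembly or at the nuclear envelope were counted. In siOGA against siNC 5 rose and 5 fell (34% and 32.9% of all tested genes). In siP300+OGA against siP300 4 rose and 1 fell (27% and 21.2% of all tested genes). In siP300 against siNC 6 rose and 5 fell (30.2% and 35.7% of all tested genes). In siOGA against siNC the largest rises were those of the SUMO protease SENP1 (0.40), EMD (0.36) and BANF1 (0.34), and the largest falls those of TOR1A (−0.49), the lamin B receptor LBR (−0.47) and TOR1B (−0.44). SENP2, a SUMO protease bound to the basket, averaged 23.3 ± 0.257 FPKM in siP300 and 44.4 ± 0.780 FPKM in siNC (−0.90), and TMEM33 (−0.68) and EMD (−0.42) came next among the falls there. TOR1AIP1 (0.49), TOR1A (0.48) and LBR (0.28) rose most in siP300. In siP300+OGA against siP300 BANF1 (0.45), TMEM33 (0.36) and SENP1 (0.25) rose most, and SENP2 fell (−0.11). AHCTF1, the ELYS protein that seeds pores on chromatin, rose in siOGA (0.31) and in siP300+OGA over siP300 (0.24) and did not pass in siP300 (0.03, adjusted p = 0.683).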

How the data were processed

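RNA was measured in 12 libraries of H9 cells, poly(A)-selected, stranded with dUTP and tagged with molecular identifiers, per the labels' protocols. The deposited values are FPKM, which the authors scaled per kilobase of a listed gene length; 100% of the values above 0 were whole multiples of a step per library (tolerance 0.01 read), so the reads behind them could be recovered. Build GRCh38 and the tools HISAT2 2.0.4, StringTie 1.3.4d, edgeR, DESeq2, UMI-tools and cutadapt 1.9 come from the submitters' processing notes; neither their roles nor the counted strand is given in the sources used here. Gene coordinates in the table are those of the authors.

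Log2(FPKM + 1) was compared with limma 3.58.1 (R 4.3.3) with an intensity trend and 8 residual degrees of freedom, for the 13166 genes averaging 1 FPKM or more, in 5 comparisons, each with Benjamini-Hochberg adjusted p under 0.05 and 95% intervals. The log2 scale with a pseudocount of 1 understates changes of low genes. An exact permutation test of 3 against 3 libraries cannot give p below 0.1. Values in every library are given for the 5 tested members with the largest absolute difference in each of the first 3 comparisons, and for NUP62, NUP98, NUP153, NUP214, RANBP2 and TPR; those of NUP42 were chosen after its values were seen. From the partner lists the 3 largest called rises and falls in the first 3 comparisons are named, and AHCTF1 was added after its values were seen. Whether equal replicate numbers mark libraries made together is not stated, and the main model used no pairing. Correlations of deviations between libraries of equal number were −0.0575 to 0.131 over 18 pairs, 1 of them over 0.1. Alternatives were a pseudocount of 0.1, no filter, a minimum mean of 5 FPKM, quantile and median-ratio scaling, only the groups compared, no trend, a replicate block, medians of 20 Mb regions removed, voom on the recovered reads, a minimum difference of 0.5, and leaving out each library. The members, lists and tests were chosen with earlier results of these data known. Promoters are from RefSeq (GRCh38.p14).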

Additional observations from a re-analysis of the deposited data

How the results depend on the processing

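With a minimum log2 difference of 0.5, the nucleoporin genes called higher and lower were 3 and 1 of 31 in siOGA against siNC (1761 and 1788 of all 13166 tested genes). They were 1 and 8 in siP300 against siNC (1825 and 1794 of all tested genes), and 2 and 0 in siP300+OGA against siP300 (488 and 822). In siP300+OGA against siNC they were 1 and 2 (1414 and 1476), and in siOGA against siP300 8 and 0 (2479 and 2375). All genes called were 3549, 3619, 1310, 2890 and 4854 in the same order of comparisons. With a mean of at least 5 FPKM, fewer genes were tested and 5117, 5172, 4139, 4784 and 5585 were called. The 1 gene lower in siP300+OGA than in siP300 became 0 with no filter, no intensity trend, a replicate block or regional medians removed. Quantile normalization gave 7 lower in siOGA against siP300, and removing regional medians gave 6 higher in siOGA against siNC; the cause was not tested.

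Leaving out each library gave 10 to 11 genes higher and 13 to 16 lower in siOGA against siNC (8230 to 8744 of all genes called), 2 to 3 and 21 to 23 in siP300 against siNC (8129 to 8897), 21 to 26 and 0 to 1 in siP300+OGA against siP300 (5570 to 6717), 5 to 7 and 7 to 12 in siP300+OGA against siNC (7393 to 8293), and 19 to 21 and 3 to 5 in siOGA against siP300 (9270 to 9741). The 7 lower came without siP300+OGA replicate 1. With no library left out, 34% and 32.9% of all tested genes were called higher and lower in siOGA against siNC. These shares were 30.2% and 35.7% in siP300 against siNC, and 27% and 21.2% in siP300+OGA against siP300. They were 30.8% and 30.2% in siP300+OGA against siNC, and 39.3% and 34.8% in siOGA against siP300. No direction of a called gene reversed when a library was left out. With the replicate number as a block, 24 nucleoporin genes rose and 0 fell in siP300+OGA against siP300 (3593 and 2806 of all 13166 tested genes). In siP300 against siNC 2 rose and 23 fell (4013 and 4741 of all tested genes). Whether the numbers pair the libraries is not stated in the sources used here.

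With regional medians removed, values took the other sign for AAAS in siOGA (−0.0099), siP300 (−0.193) and siP300+OGA (−0.148) against siNC, NUP107 in siP300+OGA against siNC (−0.0694), NUP188 in siOGA against siNC (0.0485), NUP210 (−0.0262) and NUP58 (0.0610) in siP300+OGA against siP300, and NUP214 (0.0184), NUP62 (0.127) and RANBP2 (−0.00983) in siOGA against siP300. With quantile normalization NUP188 in siOGA against siP300 stood at −0.0765. Of the 27 genes called in siOGA against siNC 18 were called under every alternative without a minimum difference, as were 21 of 26 in siP300 against siNC, 14 of 27 in siP300+OGA against siP300, 10 of 17 in siP300+OGA against siNC and 15 of 24 in siOGA against siP300.

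The number of libraries, 3 a group, limits all comparisons. NUP210L was not tested, since its mean over the 12 libraries, 0.0468 FPKM, lay under the minimum of 1 FPKM. Small differences near the threshold depended on the settings in siP300+OGA against siP300, where 7 calls were lost in 5 or more of the alternatives.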
